A study of Mus musculus with 12 samples.

Results

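The EGF family ligands and the ErbB receptors were followed as 10 genes, chosen by symbol from the 54532 genes of the deposited expression table. The 7 ligand genes were Areg, Tgfa, Hbegf, Btc, Egf, Nrg1 and Ereg, and the 3 receptor genes were Egfr, Erbb2 and Erbb3. Bulk RNA had been sequenced from hyperplastic mammary glands. The donors were female FVB/N mice of the MIC model, whose mammary epithelium switches on polyoma middle T and Cre when doxycycline is given. All 3 groups received doxycycline at 2 mg/ml, and 2 wk stands in the titles as the time. The groups were MIC Stat3 ko (4 libraries), MIC Chi3l1 ko (4 libraries) and MIC WT (4 libraries), so WT glands also carried the induced oncogene and Cre. Ages, alleles and the promoters that drive the transgenes are not in the labels. Where a gene is removed by Cre, cells that do not express Cre keep it, and the labels do not say whether the Stat3 and Chi3l1 alleles are of that kind. Libraries are written as Stat3 ko 1 to 4, Chi3l1 ko 1 to 4 and WT 1 to 4. What separates the 4 samples of a group is not stated, so p-values measure the spread between these samples.

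EGF family ligands are made as membrane-anchored precursors and are released by metalloproteases, chiefly ADAM17, before they bind ErbB receptors on the same or a neighbouring cell. AREG, TGFA and EGF bind EGFR, while BTC, HBEGF and EREG bind EGFR and ERBB4, and NRG1 binds ERBB3 and ERBB4. ERBB2 binds no known ligand and acts as the partner of the others, and ERBB3 has a very weak kinase and signals mainly through PI3 kinase when paired with ERBB2. In the mouse mammary gland, amphiregulin is made by hormone-sensing luminal cells in response to oestrogen and is needed for ductal growth in puberty.

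Areg and Tgfa moved in opposite directions in Stat3 ko glands, and the bases upstream of their starts are shown for that reason. Of the 10 genes, 6 had a promoter in the RefSeq table of GRCm38.p6, the build of the expression table, with 7 windows in all, since Egf has 2, one of them at an annotated start inside the gene. None of these 6 genes held the STAT motif TTCNNNGAA or the AP-1 motif TGANTCA in its windows, which run from 250 bases before to 50 bases after an annotated start and were searched on both strands. Those letters stood in 8.3% (STAT) and 7.81% (AP-1) of the 32851 promoter windows of the table. The Areg window held 1 copy of the cyclic AMP response element TGACGTCA, in capitals below, which starts 61 bases before the gene's start. That motif was searched after the Areg letters had been seen, it shares no base with a match to the other motifs, and it stood in 1.79% of all windows. A match is a string of letters only, and no binding was measured. The 250 upstream bases of Areg (chr5:91139349-91139598, plus strand) and of Tgfa (chr6:86194972-86195221, plus strand) are given 5′ to 3′.
Areg: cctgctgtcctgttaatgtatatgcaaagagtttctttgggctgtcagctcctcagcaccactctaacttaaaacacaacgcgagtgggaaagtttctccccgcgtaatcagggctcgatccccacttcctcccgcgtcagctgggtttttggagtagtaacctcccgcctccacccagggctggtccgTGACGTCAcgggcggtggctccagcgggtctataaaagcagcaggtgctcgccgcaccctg
Tgfa: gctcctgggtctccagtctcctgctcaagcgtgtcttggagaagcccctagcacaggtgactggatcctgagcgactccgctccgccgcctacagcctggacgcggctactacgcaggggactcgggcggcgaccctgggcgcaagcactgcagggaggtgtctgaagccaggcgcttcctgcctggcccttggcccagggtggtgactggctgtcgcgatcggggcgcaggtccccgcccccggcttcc

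Library depth was 16217143 to 22607123 counts. As a check of the labels, Stat3 averaged 15.8 ± 3.04 FPKM in Stat3 ko glands and 48.0 ± 1.93 FPKM in WT glands (SD, n = 4 each), and Chil1, the mouse gene for Chi3l1, had 3 counts in the 4 Chi3l1 ko libraries together, against 33856 in the WT libraries. Stat3 ko 1, Stat3 ko 2 and Chi3l1 ko 2 had over 2% mitochondrial counts, and Stat3 ko 1 and 2 had the lowest means of the 10 general epithelial markers, at 6.44 and 6.72 on the log2(FPKM + 1) scale. The other Stat3 ko libraries had 7.60 and 7.86, the Chi3l1 ko libraries 7.49 to 7.91 and the WT libraries 7.63 to 8.12. All 10 epithelial markers, keratins 8 and 18 and Epcam among them, were expressed, and 0 of the 10 passed the test between Stat3 ko and WT glands. The 10 differences were all below 0, with a median of -0.77 on the log2(FPKM + 1) scale, beside -0.58 for Erbb2. In a fit without the 3 libraries of over 2% mitochondrial counts that median was -0.17, beside -0.35 for Erbb2. Other cell types moved as well. The adipocyte mean was 8.52, 5.27, 5.05 and 4.37 in Stat3 ko 1 to 4, against 2.89 to 5.57 in Chi3l1 ko and 2.32 to 3.74 in WT glands, so all 4 Stat3 ko libraries were above WT. Against WT, 4 of 8 adipocyte markers were called higher, as were 3 of 9 T cell, 1 of 5 B cell, 4 of 8 macrophage, 2 of 8 fibroblast and 2 of 6 endothelial markers. Called lower were 1 of 3 neutrophil, 1 of 4 Schwann and 5 of 7 alveolar markers. No skeletal muscle, basal or hormone-sensing luminal marker was called. Over all tested genes 5.61% were called higher and 8.39% lower. The part of these cell types in the differences of the 10 genes was not tested. In bulk tissue, fewer cells of a type and less RNA per cell cannot be told apart.

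Of the 10 genes, 7 reached 1 FPKM in at least 4 of the 12 libraries and were tested, and Egf, Nrg1 and Ereg were not. FPKM are fragments divided by gene length and by a library total, and tests were made on log2(FPKM + 1) with limma over all 13643 genes that reached that level. Between Stat3 ko and WT glands, 1 of the 7 was higher (Areg) and 2 were lower (Tgfa and Erbb2) at a Benjamini-Hochberg adjusted p under 0.05. Over all tested genes the called share was 14%, with 5.61% higher and 8.39% lower. The 7 differences had a median of -0.29 on the log2(FPKM + 1) scale, beside -0.02 over all tested genes. Between Stat3 ko and Chi3l1 ko glands the called genes were again Areg (higher) and Tgfa and Erbb2 (lower), with 13.2% of all genes called (5.19% higher and 8% lower), and a median of -0.38 beside -0.02. These comparisons share the Stat3 ko libraries. Without the 3 libraries of over 2% mitochondrial counts, 2 of the 7 were called against WT (Areg and Tgfa) and 4 against Chi3l1 ko (Areg, Tgfa, Erbb2 and Egfr). In those fits 9.34% of all tested genes were called against WT (4.52% higher and 4.82% lower) and 11.5% against Chi3l1 ko (5.46% higher and 6.08% lower). Between Chi3l1 ko and WT glands 0 of the 7 were called by limma, edgeR or DESeq2, and 0 had an unadjusted p under 0.05 with limma. In that comparison limma called 0.00733% of all tested genes (1.63% had an unadjusted p under 0.05), edgeR 0.00608% and DESeq2 0.0357%.

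**Figure D1:**
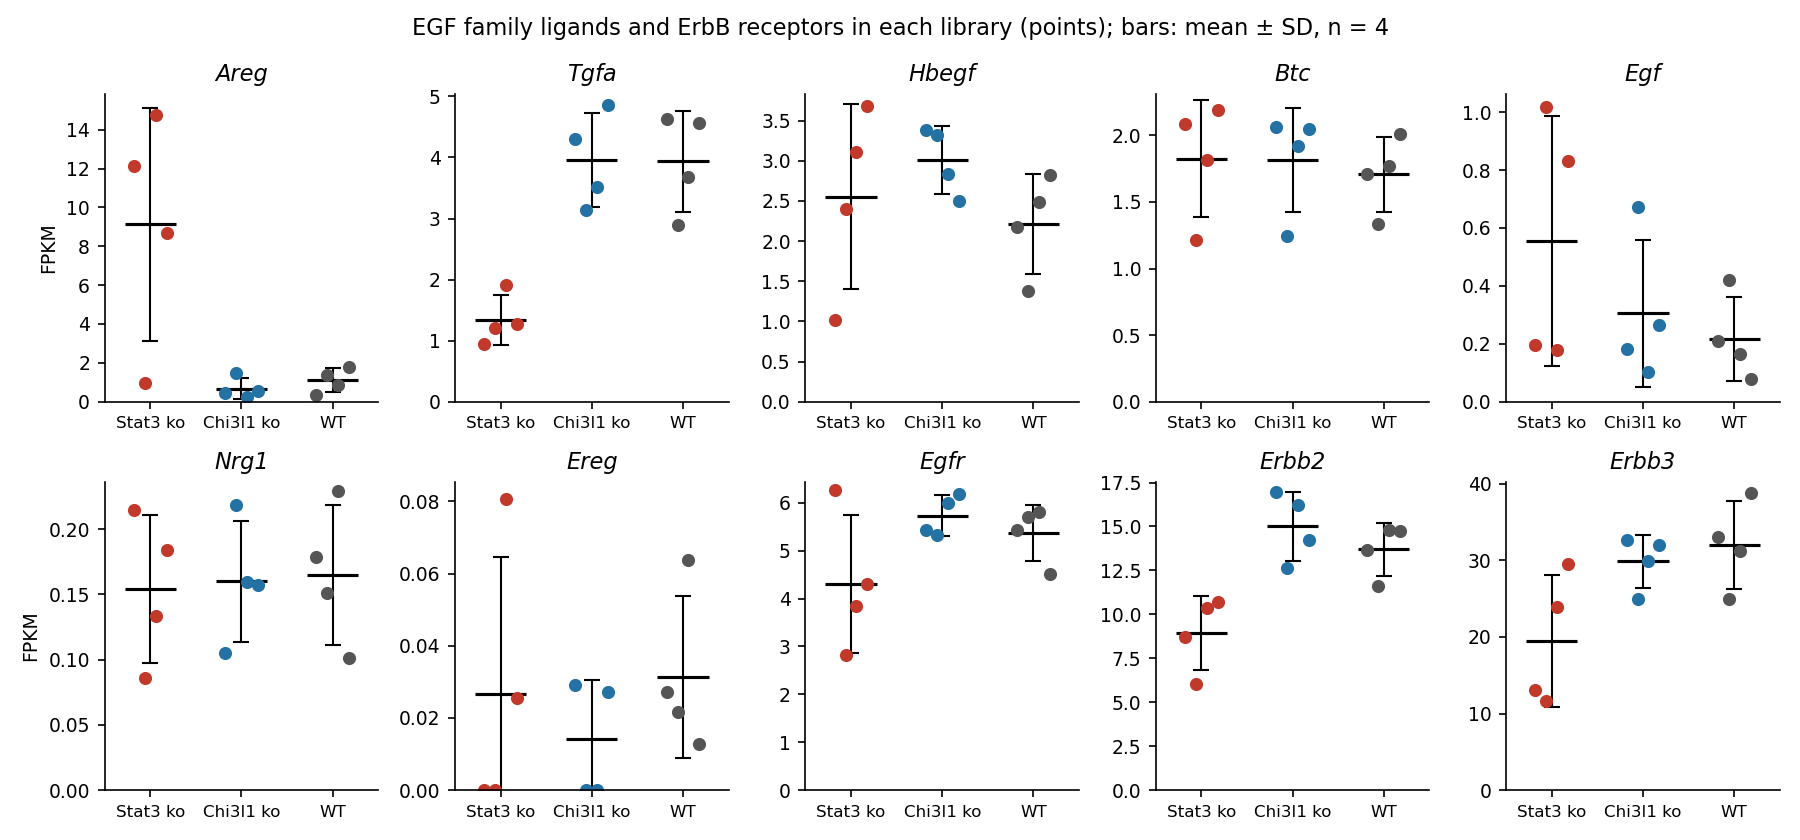
FPKM of each of the 10 genes in the 12 libraries. Points are libraries, grouped as Stat3 ko, Chi3l1 ko and WT from left to right, and bars give the mean ± SD (n = 4); each panel has its own axis from 0. Tgfa and Erbb2 lie lower in all 4 Stat3 ko libraries than in any other library, and Areg is higher in 3 of the 4.

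Areg, the gene for amphiregulin (ENSMUSG00000029378, chr5:91139599-91148432, GRCm38), had 12.1, 0.957, 14.7 and 8.67 FPKM in Stat3 ko 1 to 4. It had 0.430, 1.45, 0.248 and 0.553 FPKM in Chi3l1 ko 1 to 4, and 0.368, 1.40, 0.867 and 1.76 FPKM in WT 1 to 4. Stat3 ko 1, 3 and 4 stood above every Chi3l1 ko and WT library, while Stat3 ko 2 lay within their range, so the groups overlapped. The counts behind these levels were 246, 21, 376 and 199 in Stat3 ko glands, 13, 39, 6 and 12 in Chi3l1 ko glands, and 8, 38, 20 and 41 in WT glands. Means were 9.13 ± 5.99 FPKM in Stat3 ko glands, 0.671 ± 0.536 FPKM in Chi3l1 ko glands and 1.10 ± 0.611 FPKM in WT glands (SD, n = 4 each). The Stat3 ko mean was thus 8.30 times the WT mean and 13.6 times the Chi3l1 ko mean. Areg rose by 1.96 ± 0.56 (SE) on the log2(FPKM + 1) scale, on which changes of low genes are understated, against WT (95% interval 0.74 to 3.18, limma adjusted p = 0.0394) and by 2.29 ± 0.56 against Chi3l1 ko (1.07 to 3.51, adjusted p = 0.0238). Areg passed the expression filter with 6 libraries, 3 of them Stat3 ko. Without the Stat3 ko libraries it would have fallen short of the 4 that the filter asks for. A rise in Stat3 ko glands was thus favoured in advance.

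The Areg difference kept its direction in every fit that tested it, while its call changed with the libraries fitted. Against WT, the difference was 2.63 (limma adjusted p = 0.000946) without Stat3 ko 2. The call ended, with adjusted p between 0.0530 and 0.0794, without Stat3 ko 1 (0.0794), Stat3 ko 3 (0.0663), Stat3 ko 4 (0.0530), Chi3l1 ko 1 (0.0578), Chi3l1 ko 3 (0.0551), Chi3l1 ko 4 (0.0570), WT 2 (0.0656) or WT 4 (0.0720), and further without WT 3 (0.0860) or WT 1 (0.116). In these 10 fits the difference was 1.63 to 2.11, and the number of all genes called also moved, for example to 571 without WT 1, against 1911 with all libraries. It also ended with a pseudocount of 0.1 (0.0508), with no filter on low genes (0.0832) and with only the compared groups in the fit (0.101). Without the 3 libraries of over 2% mitochondrial counts, Areg was higher by 2.60 (adjusted p = 0.00201). Fits to the recovered counts gave a log2 fold change of 3.04 with edgeR (adjusted p = 0.0268) and 3.05 with DESeq2 (adjusted p = 0.000335). Against Chi3l1 ko, the call ended without Chi3l1 ko 1 (0.0720), 3 (0.0679) or 4 (0.0660), with no filter (0.0542) and with only the compared groups (0.0819). The authors' deposited table, from the same libraries, gives Areg a log2 fold change of 3.04 in Stat3 ko over WT glands, with an adjusted p of 0.000572.

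Areg was set beside 6 hormone-sensing luminal markers, Esr1, Pgr, Prlr, Foxa1, Cited1 and Tbx3, of which some moved with it and Prlr did not. The mean of the 6 markers on the log2(FPKM + 1) scale was 3.47, 0.874, 1.91 and 1.83 in Stat3 ko 1 to 4, 0.754 to 1.002 in Chi3l1 ko glands and 0.764 to 1.29 in WT glands. Stat3 ko 1, 3 and 4 were thus the 3 highest libraries for this mean and for Areg, and Stat3 ko 2 was within the range of WT glands for both. Of the 6 markers 4 were tested, 0 were called against WT, and none was at 0 in all libraries. Against Chi3l1 ko, 1 of the 4 was called, Foxa1, which was higher by 2.18 (limma adjusted p = 0.0407). In that comparison 5.19% of all tested genes were called higher. In a fit without Stat3 ko 1, Stat3 ko 2 and Chi3l1 ko 2, 2 of the 4 tested markers were called against WT (Foxa1 and Cited1). Both were higher, beside 4.52% of all tested genes called higher in that fit. Both had passed the expression filter through Stat3 ko libraries, so a rise was favoured in advance. Foxa1, a pioneer factor for the oestrogen receptor, had 21.7, 0.549, 5.61 and 5.04 FPKM in Stat3 ko 1 to 4, against 0.256 to 0.544 FPKM in Chi3l1 ko and 0.118 to 1.56 FPKM in WT glands. Pgr, the progesterone receptor, had 8.54, 0.227, 0.585 and 1.58 FPKM in Stat3 ko 1 to 4, against at most 0.428 FPKM in WT glands. Prlr, the prolactin receptor, had 13.4, 2.04, 6.01 and 5.81 FPKM in Stat3 ko 1 to 4, against 4.77 to 7.01 FPKM in Chi3l1 ko and 5.88 to 7.24 FPKM in WT glands, so Stat3 ko 1 alone was high. Esr1, the oestrogen receptor, had 5.01, 1.34, 1.33 and 1.89 FPKM in Stat3 ko 1 to 4, against 0.958 to 1.72 FPKM in Chi3l1 ko and 1.01 to 1.29 FPKM in WT glands. Stat3 ko 2 and 3 lay within the Chi3l1 ko range for Esr1. Tbx3 had 0.884 to 4.12 FPKM in Stat3 ko glands, with Stat3 ko 2 at 1.04 FPKM, against at most 0.592 FPKM in WT glands. The part of these cells in the Areg difference was not tested.

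**Figure D2:**
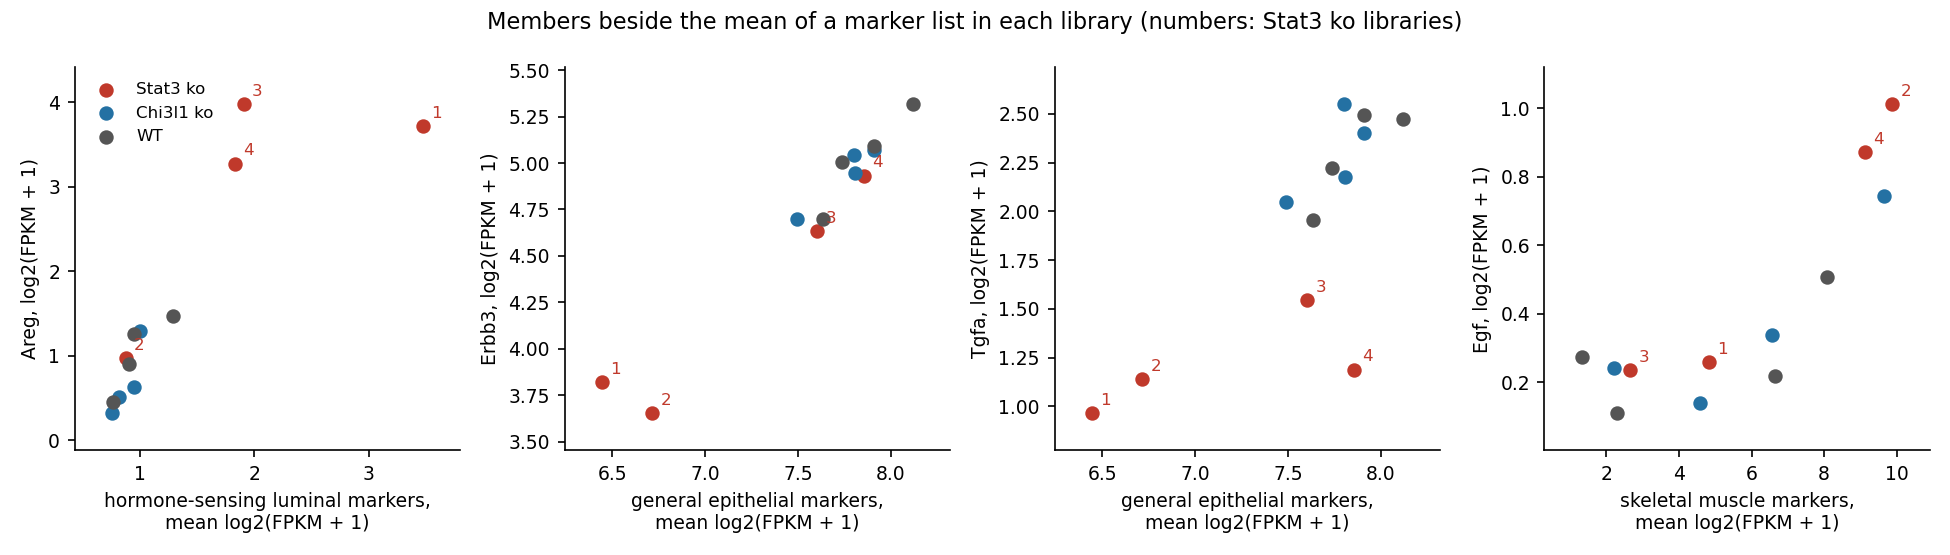
Levels of Areg, Erbb3, Tgfa and Egf (vertical axes, log2(FPKM + 1)) beside the mean of a marker list in the same library (horizontal axes, mean log2(FPKM + 1)). Red points are Stat3 ko libraries with their numbers, blue points Chi3l1 ko and grey points WT; Stat3 ko 1, 3 and 4 are highest for Areg and for the mean of the hormone-sensing luminal markers, and Stat3 ko 3 and 4 have low Tgfa beside epithelial means of 7.60 and 7.86.

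Among all tested genes, those whose centred log2(FPKM + 1) profile over the 12 libraries was most like that of Areg were Foxa1, Alox12e and Cited1. Their root mean square differences from Areg were 0.469, 0.475 and 0.540, beside a root mean square of 1.26 for Areg about its own mean. Alox12e, a lipoxygenase gene, had 14.4, 6.64, 29.3 and 15.9 FPKM in Stat3 ko glands, against 1.31 to 1.98 FPKM in Chi3l1 ko and 2.78 to 4.16 FPKM in WT glands. Unlike Areg, Alox12e did not overlap between Stat3 ko glands and either other group, as held with Stat3 ko higher for 9.67% of all tested genes against WT and 6.85% against Chi3l1 ko. Likeness was measured on the same 12 libraries as the comparisons. Foxa1 and Cited1 reached 1 FPKM only in Stat3 ko 1, 3 and 4 and in WT 4. Both thus passed the expression filter through the libraries where they are high, so their likeness to Areg was favoured by the filter.

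Areg lies in a cluster of EGF family genes on chromosome 5 in which Epgn (chr5:91027464-91035215), Ereg (chr5:91074622-91093646), Areg and Btc (chr5:91357261-91402994) are the 4 protein-coding genes of 375531 bases. Its tested neighbours Epgn and Btc were called in no comparison. Epgn, the gene for epigen, averaged 0.557 ± 0.283 FPKM in Stat3 ko, 1.04 ± 0.560 FPKM in Chi3l1 ko and 0.925 ± 0.356 FPKM in WT glands, and its difference of -0.30 against WT (limma adjusted p = 0.342) had a 95% interval of -0.78 to 0.17.

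Tgfa, the gene for transforming growth factor alpha (ENSMUSG00000029999, chr6:86195223-86275719), had 0.952, 1.203, 1.92 and 1.28 FPKM in Stat3 ko 1 to 4. In Chi3l1 ko 1 to 4 it had 4.29, 3.14, 3.52 and 4.85 FPKM, and in WT 1 to 4 it had 4.63, 2.89, 3.68 and 4.57 FPKM. All 4 Stat3 ko libraries were below all 8 others, while the Chi3l1 ko and WT ranges covered each other. Ranges of Stat3 ko and WT glands that do not overlap, with Stat3 ko lower, were seen for 11.6% of all tested genes, and those of Stat3 ko and Chi3l1 ko glands for 10.2%. Tgfa averaged 1.34 ± 0.410 FPKM in Stat3 ko glands, 3.95 ± 0.770 FPKM in Chi3l1 ko glands and 3.94 ± 0.826 FPKM in WT glands (SD, n = 4 each), so the Stat3 ko mean was 34.0% of the WT mean. It fell by 1.08 ± 0.17 (SE) on the log2(FPKM + 1) scale against WT (limma adjusted p = 0.00327) and by 1.09 ± 0.17 against Chi3l1 ko (adjusted p = 0.00306). Between Chi3l1 ko and WT glands the difference was 0.01, with a 95% interval of -0.36 to 0.37. The fall against WT was called in each of the 22 alternative fits that tested Tgfa, with adjusted p up to 0.0205, and so was the fall against Chi3l1 ko, with adjusted p up to 0.0170. A fit to the recovered counts with edgeR gave a log2 fold change of -1.56 against WT, and the authors' deposited table gives -1.57 with an adjusted p of 1.02e-06.

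Means of the general epithelial markers were lowest in Stat3 ko 1 and 2, that of Stat3 ko 3 (7.60) was just below the WT range of 7.63 to 8.12, and that of Stat3 ko 4 (7.86) was within it. Relative to the mean of the 10 general epithelial markers, Tgfa stood at -5.48, -5.58, -6.06 and -6.67 in Stat3 ko 1 to 4 as a log2 difference, at -5.25 to -5.63 in Chi3l1 ko glands and at -5.42 to -5.68 in WT glands. Stat3 ko 1 and 2 therefore lay within the range of WT glands on that measure, and Stat3 ko 3 and 4 lay below it. The measure uses log2(FPKM + 1), which understates the fall of a low gene such as Tgfa beside high markers. The part of the pseudocount of 1 in the overlap of Stat3 ko 1 and 2 with WT glands was not tested. The measure was not made with another pseudocount. With a pseudocount of 0.1 the Tgfa difference against WT, not taken relative to the markers, was -1.51, in place of -1.08. Without the 3 libraries of high mitochondrial share, which removes Stat3 ko 1 and 2, Tgfa was still lower by a log2 difference of -0.92 (limma adjusted p = 0.0205). Markers of alveolar cells were also low, with means of 3.53 to 4.95 in Stat3 ko glands. These means were 6.23 to 8.04 in Chi3l1 ko glands and 6.70 to 8.61 in WT glands. Of these 7 genes 5 fell against WT, beside 8.39% called lower over all tested genes. The part of epithelial and alveolar cells in the Tgfa difference was not tested. The genes with the profiles most like Tgfa were Osbpl10, Fem1b and Golm1, a Golgi membrane protein gene, with root mean square differences of 0.118, 0.121 and 0.144, beside 0.551 for Tgfa about its own mean.

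Hbegf, the gene for heparin-binding EGF (ENSMUSG00000024486, chromosome 18), had 1.01, 2.40, 3.11 and 3.68 FPKM in Stat3 ko 1 to 4, so its lowest and its highest level over all 12 libraries both came from Stat3 ko glands. It had 3.39, 3.32, 2.83 and 2.503 FPKM in Chi3l1 ko 1 to 4 and 2.17, 1.38, 2.49 and 2.82 FPKM in WT 1 to 4, and all groups overlapped. Its difference between Stat3 ko and WT glands was 0.10 (95% interval -0.43 to 0.63) on the log2(FPKM + 1) scale, with a limma adjusted p of 0.796. Against WT, Chi3l1 ko glands differed by 0.34 (-0.19 to 0.86).

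Btc, the gene for betacellulin (ENSMUSG00000082361), ranged from 1.21 to 2.19 FPKM over all 12 libraries. It had 2.08, 1.21, 1.81 and 2.19 FPKM in Stat3 ko 1 to 4, 2.06, 1.24, 1.92 and 2.05 FPKM in Chi3l1 ko 1 to 4, and 1.71, 1.34, 1.77 and 2.01 FPKM in WT 1 to 4. The lowest library of each group was its library 2, and the numbers of the libraries do not pair them. The difference was 0.05 between Stat3 ko and WT glands (95% interval -0.28 to 0.38) and 0.05 between Chi3l1 ko and WT glands (-0.28 to 0.38), so changes beyond these bounds on the log2(FPKM + 1) scale lie outside the intervals.

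Egf, Nrg1 and Ereg were too low to be tested at the 1 FPKM level. Egf (ENSMUSG00000028017, chr3:129677565-129755316) had 0.197, 1.02, 0.177 and 0.831 FPKM in Stat3 ko 1 to 4, 0.182, 0.674, 0.102 and 0.263 FPKM in Chi3l1 ko 1 to 4 and 0.208, 0.420, 0.164 and 0.0788 FPKM in WT 1 to 4. The 4 highest Egf levels came from Stat3 ko 2, Stat3 ko 4, Chi3l1 ko 2 and WT 2, which were also the 4 libraries with the highest mean of the 6 skeletal muscle markers, at 9.88, 9.13, 9.65 and 8.07 on the log2(FPKM + 1) scale. The other 8 libraries had muscle means of 1.32 to 6.64. The part of muscle in the Egf levels was not tested. With no filter, edgeR gave Egf a log2 fold change of 1.33 between Stat3 ko and WT glands (adjusted p = 0.281). For Egf the authors' deposited table also gives 1.33, with an adjusted p of 0.167.

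Nrg1, the gene for neuregulin 1 (ENSMUSG00000062991), had 0.214, 0.0856, 0.134 and 0.184 FPKM in Stat3 ko 1 to 4, 0.105, 0.218, 0.160 and 0.157 FPKM in Chi3l1 ko 1 to 4 and 0.178, 0.151, 0.229 and 0.101 FPKM in WT 1 to 4. The ranges of the 3 groups covered one another. Ereg, the gene for epiregulin (ENSMUSG00000029377), had 0, 0, 7 and 2 counts in Stat3 ko 1 to 4, 3, 0, 0 and 2 counts in Chi3l1 ko 1 to 4 and 2, 2, 5 and 1 counts in WT 1 to 4. With 24 counts in 12 libraries, a difference in Ereg was not detectable at this depth.

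**Figure D3:**
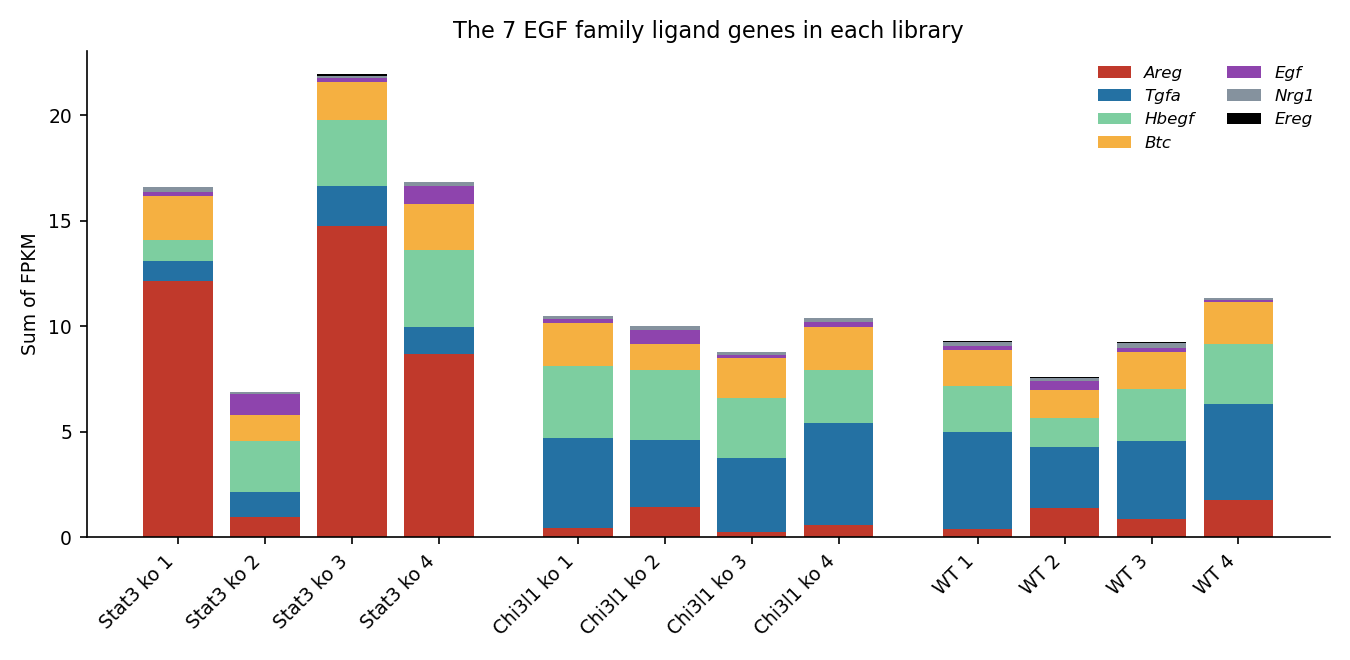
Sum of the FPKM of the 7 ligand genes in each library, stacked by gene, with Stat3 ko libraries at the left, Chi3l1 ko in the middle and WT at the right. Areg is the largest part in Stat3 ko 1, 3 and 4, and the sum is lowest in Stat3 ko 2 (6.88 FPKM).

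Added per kilobase, the 7 ligands came to 16.6, 6.88, 21.97 and 16.9 FPKM in Stat3 ko 1 to 4, to 10.5, 10.04, 8.78 and 10.4 FPKM in Chi3l1 ko 1 to 4, and to 9.29, 7.59, 9.26 and 11.4 FPKM in WT 1 to 4. Stat3 ko 1, 3 and 4 were above all other libraries and Stat3 ko 2 was below them. Areg made up 73.1%, 13.9%, 67.1% and 51.4% of the sum in Stat3 ko 1 to 4, against 2.82% to 14.5% in Chi3l1 ko glands and 3.97% to 18.4% in WT glands. Tgfa made up 5.73% to 17.5% of it in Stat3 ko glands, 31.2% to 46.6% in Chi3l1 ko glands and 38.0% to 49.8% in WT glands. The most abundant ligand transcript was Areg in Stat3 ko 1, 3 and 4, Hbegf in Stat3 ko 2 and Chi3l1 ko 2, and Tgfa in the remaining 7 libraries. Transcript levels do not give the amount of ligand released.

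Egfr, the receptor for most of these ligands (ENSMUSG00000020122, chr11:16752203-16918158), had 6.26, 2.83, 3.84 and 4.31 FPKM in Stat3 ko 1 to 4. It had 5.42, 5.32, 5.998 and 6.18 FPKM in Chi3l1 ko 1 to 4 and 5.43, 5.70, 5.80 and 4.51 FPKM in WT 1 to 4. Stat3 ko 2, 3 and 4 lay below every other library, and Stat3 ko 1 lay above them all. Stat3 ko 1 also had the highest means of adipocyte, fibroblast, endothelial, Schwann, hormone-sensing luminal, and basal and myoepithelial markers. The part of these cells in the Egfr levels was not tested. The difference against WT was -0.29 on the log2(FPKM + 1) scale (95% interval -0.65 to 0.06, limma adjusted p = 0.222) and that against Chi3l1 ko was -0.38 (adjusted p = 0.137). Without Stat3 ko 1 these became -0.46 (adjusted p = 0.0337) and -0.54 (adjusted p = 0.0184). With libraries weighted by their fit, the limma adjusted p was 0.0477 against WT and 0.0267 against Chi3l1 ko. Without the 3 libraries of high mitochondrial share it was 0.0910 against WT and 0.0384 against Chi3l1 ko. Of 23 alternative fits, Egfr was called in 2 against WT and in 3 against Chi3l1 ko.

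Erbb2, the partner receptor without a ligand (ENSMUSG00000062312, chr11:98412470-98437716), had 8.72, 6.06, 10.3 and 10.7 FPKM in Stat3 ko 1 to 4, 17.0, 12.6, 16.2 and 14.2 FPKM in Chi3l1 ko 1 to 4 and 13.7, 11.6, 14.8 and 14.7 FPKM in WT 1 to 4. The highest Stat3 ko library was below the lowest WT and Chi3l1 ko libraries, and the Chi3l1 ko and WT ranges overlapped. Ranges apart with Stat3 ko lower were seen for 11.6% of all tested genes against WT and 10.2% against Chi3l1 ko. Means were 8.95 ± 2.11 FPKM in Stat3 ko glands, 15.0 ± 1.96 FPKM in Chi3l1 ko glands and 13.7 ± 1.49 FPKM in WT glands (SD, n = 4 each), so the Stat3 ko mean was 65.4% of the WT mean and 59.6% of the Chi3l1 ko mean. Erbb2 fell by 0.58 ± 0.16 (SE) on the log2(FPKM + 1) scale against WT (limma adjusted p = 0.0354) and by 0.70 ± 0.16 against Chi3l1 ko (adjusted p = 0.0184). Between Chi3l1 ko and WT glands the difference was 0.12 (95% interval -0.23 to 0.47). For Erbb2 in Stat3 ko over WT glands, the authors' deposited table gives a log2 fold change of -0.62 with an adjusted p of 0.0302.

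The Erbb2 call against WT ended without Stat3 ko 1 (limma adjusted p = 0.0541), Stat3 ko 2 (0.0605), Chi3l1 ko 3 (0.0504), Chi3l1 ko 4 (0.0507), WT 1 (0.0913), WT 3 (0.0858) or WT 4 (0.0927), with no filter (0.0691) and with only the compared groups (0.0887). The difference was -0.43 without Stat3 ko 2 and -0.55 to -0.58 in the other fits named here. Without the 3 libraries of high mitochondrial share the Erbb2 difference from WT was -0.35 (adjusted p = 0.0873). Against Chi3l1 ko the call ended without Chi3l1 ko 1 (0.0638) or 3 (0.0558) and with only the compared groups (0.0695). Relative to the epithelial marker mean, Erbb2 stood at -3.16, -3.90, -4.10 and -4.31 in Stat3 ko 1 to 4 as a log2 difference, at -3.70 to -3.88 in Chi3l1 ko glands and at -3.76 to -4.14 in WT glands, so the groups overlapped on that measure, and the part of epithelial content in the Erbb2 difference was not tested. Ephb4, an ephrin receptor, Efna5, an ephrin, and Trp53bp2 had the profiles most like Erbb2, with root mean square differences of 0.0990, 0.107 and 0.110 beside 0.369 for Erbb2 about its own mean.

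Erbb3, the neuregulin receptor (ENSMUSG00000018166, chr10:128567523-128589652), was the most abundant of the 10 genes in every group. It had 13.1, 11.6, 23.8 and 29.5 FPKM in Stat3 ko 1 to 4, 32.7, 25.0, 29.9 and 32.0 FPKM in Chi3l1 ko 1 to 4 and 33.1, 24.9, 31.2 and 38.8 FPKM in WT 1 to 4. Stat3 ko 1, 2 and 3 were below all other libraries, and Stat3 ko 4 lay within the range of WT glands. The difference against WT was -0.77 ± 0.26 (SE) with a 95% interval of -1.34 to -0.20, but the limma adjusted p was 0.0677, and against Chi3l1 ko it was -0.68 (adjusted p = 0.101). It passed against WT with DESeq2 (adjusted p = 0.0488), without Stat3 ko 3 (0.0492) and without Stat3 ko 4 (0.0129), and against Chi3l1 ko without Stat3 ko 4 (0.0196). Without the libraries of high mitochondrial share the Erbb3 difference against WT was -0.24 (adjusted p = 0.400). For Erbb3 in Stat3 ko over WT glands, the authors' deposited table gives a log2 fold change of -0.73 with an adjusted p of 0.115. Relative to the epithelial marker mean Erbb3 was at -2.62 to -3.06 in Stat3 ko glands, at -2.76 to -2.86 in Chi3l1 ko glands and at -2.73 to -2.94 in WT glands as a log2 difference.

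**Figure D4:**
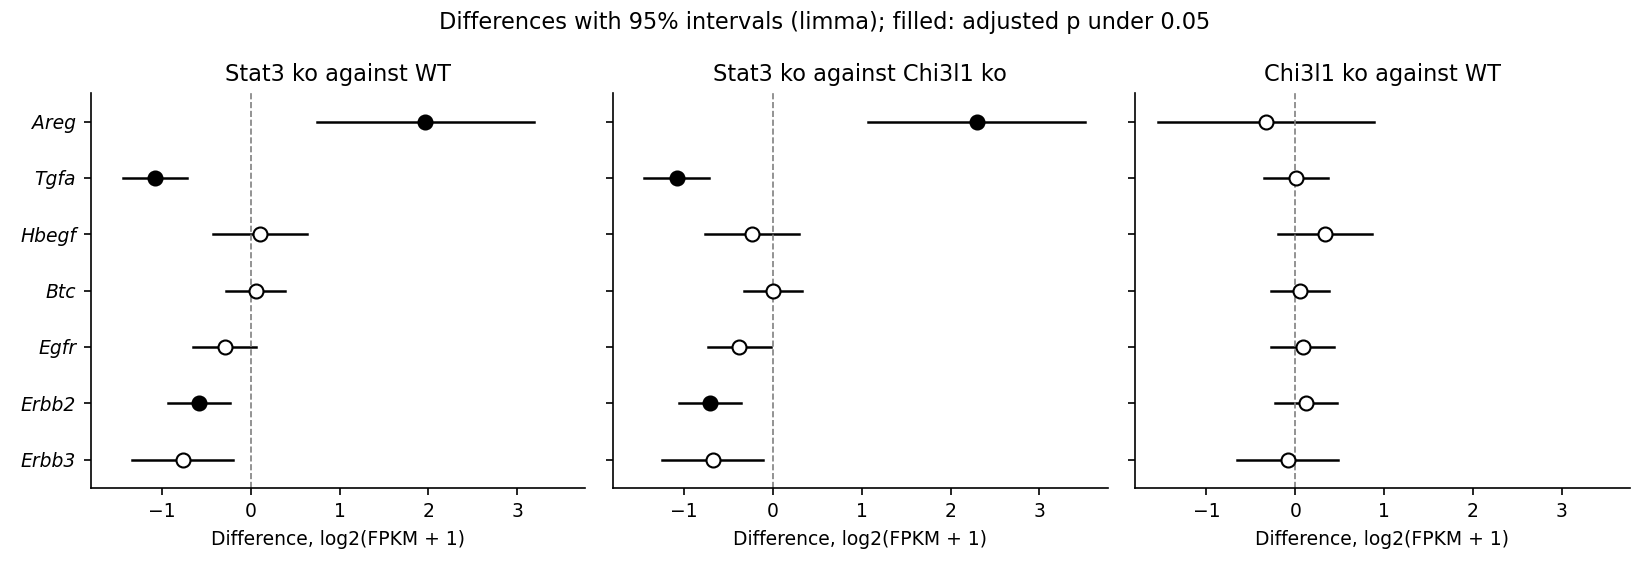
Differences of the 7 tested genes on the log2(FPKM + 1) scale (horizontal axis) with 95% intervals from limma, for Stat3 ko against WT, Stat3 ko against Chi3l1 ko and Chi3l1 ko against WT. Filled points have an adjusted p under 0.05, which holds for Areg, Tgfa and Erbb2 in the panels with Stat3 ko and for 0 of the 7 genes between Chi3l1 ko and WT.

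Ordered by mean level per kilobase, WT glands ran Erbb3, Erbb2, Egfr, Tgfa, Hbegf, Btc, Areg, Egf, Nrg1 and Ereg. The ranges of neighbours in this order overlapped for Egfr and Tgfa, Hbegf and Btc, Btc and Areg, Areg and Egf, and Egf and Nrg1. Chi3l1 ko glands had the same order of means, with overlap between Tgfa and Hbegf, Btc and Areg, Areg and Egf, and Egf and Nrg1. In Stat3 ko glands Areg came second after Erbb3, with Erbb2, Egfr, Hbegf and Btc next and Tgfa seventh. There the ranges of all neighbours overlapped except Nrg1 and Ereg, and Areg was above Erbb2 in 2 of the 4 libraries. The 3 receptors added up to 28.1, 20.5, 38.0 and 44.5 FPKM in Stat3 ko 1 to 4, 43.0 to 55.1 FPKM in Chi3l1 ko glands and 42.2 to 58.0 FPKM in WT glands. Erbb3 made up 46.7% to 66.3% of that sum in Stat3 ko glands, 57.3% to 61.1% in Chi3l1 ko glands and 59.0% to 66.9% in WT glands.

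Family genes outside the 10 included Nrg4, a neuregulin that binds ERBB4. It had 16.5, 2.89, 1.45 and 0.627 FPKM in Stat3 ko 1 to 4, 0.139 to 2.64 FPKM in Chi3l1 ko glands and 0.0921 to 0.442 FPKM in WT glands. It was highest in Stat3 ko 1, which had the highest means of adipocyte, fibroblast, endothelial, Schwann, hormone-sensing luminal, and basal and myoepithelial markers. The part of these cells in the Nrg4 levels was not tested. For Nrg4 the limma adjusted p was 0.0830 against WT, and the authors' deposited table gives a log2 fold change of 4.46 with an adjusted p of 1.81e-05. Erbb4, the remaining receptor of the family, was under the tested level, with 0.121, 0.0493, 0.0733 and 0.317 FPKM in Stat3 ko 1 to 4, at most 0.0366 FPKM in Chi3l1 ko glands and at most 0.0434 FPKM in WT glands. Behind these levels stood 11 to 74 counts in Stat3 ko, 4 to 10 in Chi3l1 ko and 3 to 12 in WT glands. The authors' deposited table gives Erbb4 a log2 fold change of 2.35 with an adjusted p of 0.0133. Of the 3 tested genes among these 5 (Epgn, Nrg2, Nrg3, Nrg4 and Erbb4), 0 were called in any comparison.

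Of 9 genes that act on ligand release, all tested, 3 fell between Stat3 ko and WT glands and 0 rose. Over all tested genes 8.39% were lower and 5.61% higher. The median difference of the 9 genes was -0.35, beside -0.02 over all tested genes. The 9 include Timp3, an inhibitor of metalloproteases rather than a releasing enzyme. Timp3 (0.55), Adam12 (0.77) and Adam15 (0.34) had differences above 0 that did not pass. Adam17, the main sheddase of AREG, TGFA and HBEGF, averaged 14.5 ± 2.11 FPKM in Stat3 ko glands and 19.4 ± 0.310 FPKM in WT glands (SD, n = 4 each), a fall by 0.41 on the log2(FPKM + 1) scale (limma adjusted p = 0.0269). Adam9, another metalloprotease, averaged 25.6 ± 4.03 FPKM in Stat3 ko and 37.3 ± 2.20 FPKM in WT glands (adjusted p = 0.0133). Rhbdf2, which carries ADAM17 to the cell surface, averaged 9.66 ± 2.48 FPKM in Stat3 ko and 14.6 ± 0.823 FPKM in WT glands (adjusted p = 0.0342). In all 3 genes every Stat3 ko library was below every WT library, as in 11.6% of all tested genes. Against Chi3l1 ko, Adam17 and Adam9 fell, beside 8% lower over all tested genes, and Rhbdf2 did not pass (adjusted p = 0.0671). The same 3 genes fell against WT when the libraries of high mitochondrial share were left out, beside 4.82% lower over all tested genes.

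Downstream of the receptors, 2 of 20 adaptor, PI3 kinase and MAP kinase cascade genes fell against WT and 0 rose, with a median difference of -0.06. That share lower is close to the 8.39% of all tested genes. Pik3r1, the regulatory subunit of PI3 kinase, averaged 25.7 ± 8.57 FPKM in Stat3 ko and 61.4 ± 7.46 FPKM in WT glands (SD, n = 4 each), a fall by 1.26 on the log2(FPKM + 1) scale (limma adjusted p = 0.00250). Akt1, a kinase that acts after PI3 kinase, averaged 53.9 ± 8.94 FPKM in Stat3 ko and 73.7 ± 4.82 FPKM in WT glands (adjusted p = 0.0269). Both genes also fell against Chi3l1 ko, where they were again 2 of the 20, beside 8% lower over all tested genes. With the libraries of high mitochondrial share left out, Akt1 no longer passed against WT (adjusted p = 0.108), and 1 of the 20 genes fell. In that fit 4.82% of all tested genes were lower.

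Feedback inhibitors of the pathway numbered 18, of which 16 were tested, and 5 fell and 0 rose against WT, beside 8.39% lower and 5.61% higher over all tested genes, with a median of -0.23. Spry2, a Sprouty inhibitor of receptor tyrosine kinase signalling, averaged 10.9 ± 1.91 FPKM in Stat3 ko, 20.4 ± 0.753 FPKM in Chi3l1 ko and 18.01 ± 2.37 FPKM in WT glands (SD, n = 4 each), with a limma adjusted p of 0.00737 against WT. Spry4 averaged 2.65 ± 0.639 FPKM in Stat3 ko and 4.19 ± 0.313 FPKM in WT glands (adjusted p = 0.0273), and Socs5, of the SOCS family of signalling inhibitors, averaged 13.2 ± 1.30 FPKM in Stat3 ko and 16.8 ± 1.76 FPKM in WT glands (adjusted p = 0.0384). The other fallen genes, named after their values were seen, were Errfi1, an inhibitor of EGFR (difference -0.85, adjusted p = 0.0304), and Cblc, a ubiquitin ligase (-0.74, adjusted p = 0.0493). Spry1 went the other way. It averaged 9.26 ± 2.45 FPKM in Stat3 ko, 5.11 ± 0.419 FPKM in Chi3l1 ko and 6.29 ± 0.254 FPKM in WT glands, and it rose against Chi3l1 ko by 0.72 (adjusted p = 0.0124) and had 0.46 against WT (adjusted p = 0.0572). Against Chi3l1 ko, 3 of the 16 fell and 1 rose, beside 8% lower and 5.19% higher over all tested genes. When the libraries of high mitochondrial share were left out, 4 fell against WT (Errfi1, Spry2, Spry4 and Lrig1, the last named after its values were seen) and Spry1 rose by 0.73 (limma adjusted p = 0.00361). Over all tested genes 4.82% were lower and 4.52% higher in that fit, where Socs5 (adjusted p = 0.198) and Cblc did not pass.

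Among 18 genes induced by ErbB and ERK signalling, 15 were tested, and 1 rose and 1 fell against WT, with a median difference of -0.37. That called share is close to the 14% of all tested genes. Fos, an immediate-early gene of the AP-1 factor, had 10.4, 6.92, 8.32 and 11.7 FPKM in Stat3 ko 1 to 4. It had 24.1 to 31.0 FPKM in Chi3l1 ko glands and 32.7 to 42.7 FPKM in WT glands, so the Stat3 ko libraries were below all others. The same held for 11.6% of all tested genes against WT and for 10.2% against Chi3l1 ko. Fos fell by 1.93 ± 0.15 (SE) on the log2(FPKM + 1) scale against WT and by 1.49 ± 0.15 against Chi3l1 ko (limma adjusted p = 6.6e-05 and 0.00024). Chi3l1 ko and WT glands differed by -0.44 in Fos (limma adjusted p = 0.9998). Egr2, another immediate-early gene, averaged 3.65 ± 0.589 FPKM in Stat3 ko and 1.66 ± 0.165 FPKM in WT glands and rose by 0.80 (adjusted p = 0.0031). The same 2 genes were called against Chi3l1 ko, beside 13.2% of all tested genes. Both passed in the same direction against WT with the libraries of high mitochondrial share left out, and Myc, named after its values were seen, was then called as higher. That fit called 9.34% of all tested genes. In the comparison of Chi3l1 ko with WT glands, 0 genes of these 4 pathway lists were called, beside 0.00733% of all tested genes.

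**Figure D5:**
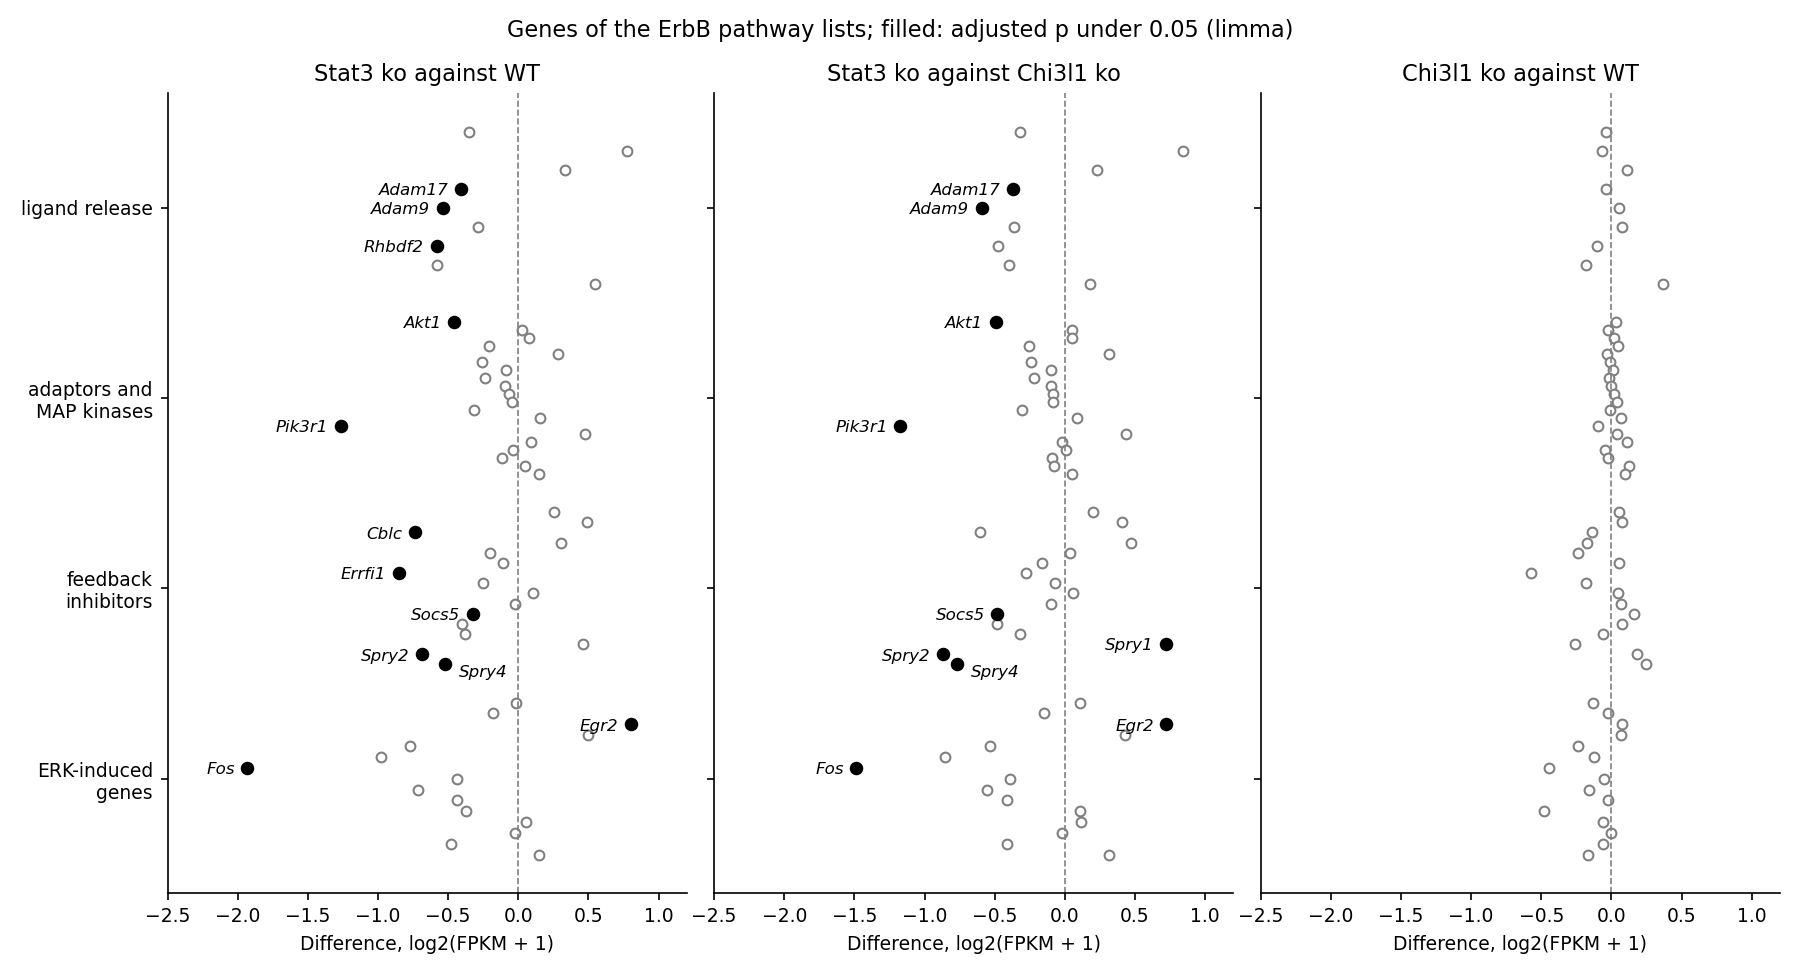
Differences on the log2(FPKM + 1) scale (horizontal axis) of the tested genes in 4 ErbB pathway lists (rows, genes spread by name) for the 3 comparisons. Filled, named points have an adjusted p under 0.05 with limma; most of the named points are falls in Stat3 ko glands, with Egr2 and Spry1 as rises.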

How the data were processed

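RNA from 12 mammary gland libraries was measured. Trimmomatic, STAR, HTSeq, edgeR and limma, without versions or roles, and the builds GRCm38 and mm10 are named in the submitters' processing notes. The authors deposited FPKM for 54532 genes with gene lengths and coordinates. Their deposited comparison tables, which list genes with an unadjusted p up to 0.0499963 only, hold raw counts per gene, a normalised signal per library (counts divided by a size factor, judged from the values), the authors' log2 fold changes and their p-values.

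Counts were recovered as FPKM times gene length times a library total, which was found from the deposited counts. They were whole within 0.001 in 100% of values, and 0 of 55832 deposited counts differed. Libraries without stated numbers were numbered in accession order. Groups came from the genotype label. log2(FPKM + 1) of the 13643 genes that reached 1 FPKM in 4 or more libraries was fitted with limma 3.58.1 (intensity trend, 3 group means, two-sided, Benjamini-Hochberg over all tested genes, R 4.3.3). A gene was called at an adjusted p under 0.05. The fit was tested on simulated data. Fits were repeated with array weights, with only the compared groups, after quantile normalization or median-of-ratios scaling, with no filter or with means of 5 FPKM or more, and with a pseudocount of 0.1. They were also repeated on recovered counts (edgeR 4.0.16, DESeq2 1.42.0), without each library, and without the 3 libraries whose mitochondrial share was over 2%, which for the marker and pathway lists was chosen after seeing the data. Marker and pathway levels are means of log2(FPKM + 1). The members and lists were chosen with earlier results of these data known. From each pathway list up to 4 called genes with the lowest adjusted p are named, and the 3 genes most like each called member. Intervals cover 95%. Promoters came from RefSeq. In the table, 27 gene names that had become dates were restored through their identifiers.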

Additional observations from a re-analysis of the deposited data

Results flagged for a closer look

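Among 36 sets of 4 libraries (10 members and the 2 targeted genes in 3 groups), 1 held a library far from the other 3. Btc had 1.24 FPKM in Chi3l1 ko 2, against 1.92 to 2.06 FPKM in the other Chi3l1 ko libraries, and the gap to the nearest of them was 0.845 of the range of the group on the log2(FPKM + 1) scale, above the value that Dixon's test allows at the 95% level. Chance flags about 1 in 20 such sets. Chi3l1 ko 2 also had 2.22% mitochondrial counts and a skeletal muscle marker mean of 9.65, and their part in the Btc level was not tested.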

How the results depend on the processing

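No paired analysis was possible because the labels give no replicate numbers or pairs. Genes called between Stat3 ko and WT glands, 1911 with limma, were 1149 with no filter, 506 with only the compared groups, 2955 with edgeR, 4392 with DESeq2 and 571 to 3252 over fits that left out 1 library. Between Stat3 ko and Chi3l1 ko glands, 1799 genes were called, and 1119, 505, 2482 and 4051 under those settings and 611 to 2890 with 1 library left out. Between Chi3l1 ko and WT glands 1 gene was called (222 at an unadjusted p under 0.05), with 2 under array weights, 1 with edgeR and 7 with DESeq2. Of the calls against WT, 766 of 1911 were higher with limma, 1644 of 2955 with edgeR and 2702 of 4392 with DESeq2. Between Stat3 ko and Chi3l1 ko glands, 708 of 1799 were higher with limma, 1282 of 2482 with edgeR and 2450 of 4051 with DESeq2.

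Members called between Stat3 ko and WT glands, 3 in the reported fit, were 1 with no filter (1149 of 31268 genes called). They were 1 with a mean of at least 5 FPKM (1323 of 8249 genes), which removes Areg and Tgfa. With only the compared groups 1 was called (506 of 13643 genes). Array weights gave 4 (1850 of 13643 genes), and DESeq2 gave 4 (4392 of 20207 genes with an adjusted p). With 1 library left out 1 to 3 were called (571 to 3252 of 13643 genes). Against Chi3l1 ko they were 1 with a mean of at least 5 FPKM (1224 of 8249 genes) and 1 with only the compared groups (505 of 13643 genes). There 1 to 4 were called with 1 library left out (611 to 2890 of 13643 genes). Small uncalled differences changed sign. Btc against WT became -0.072 and Hbegf -0.0063 in Stat3 ko glands after quantile normalization, and with 1 library left out Btc ran from -0.016 to 0.17 and Hbegf from -0.057 to 0.35. Btc in Stat3 ko against Chi3l1 ko was -0.00050 with a pseudocount of 0.1, -0.13 after quantile normalization, -0.046 with array weights, -0.0011 with edgeR, -0.0014 with edgeR and no filter, -0.0065 without the 3 libraries of high mitochondrial share and -0.11 to 0.11 with 1 library left out. Hbegf in that comparison was 0.17 without those 3 libraries and -0.39 to 0.013 with 1 left out. In Chi3l1 ko against WT, leaving out 1 library gave -0.017 to 0.16 for Btc, -0.10 to 0.088 for Tgfa and -0.20 to 0.0093 for Erbb3. No cause of the differences given above was tested. Low counts limit Areg, Egf, Nrg1 and Ereg most.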
